A study of Mus musculus with 22 samples.

Results

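The 10 astrocyte marker genes followed here were measured across 4 groups of mouse hindbrain libraries: Gfap, Aqp4, Aldh1l1, Slc1a2, Slc1a3, Gja1, S100b, Sox9, Glul and Vim. They were chosen by gene symbol, and all 10 are among the 12596 genes in the deposited data. The study asked how hTyr (human tyrosinase, the enzyme that starts melanin synthesis) changes the RNA of the locus coeruleus, the noradrenergic nucleus of the hindbrain. Every animal carried a Th-cre transgene and the Slc6a2-eGFP/Rpl10a transgene, in which the noradrenaline transporter gene's regulatory sequence drives a tagged ribosomal protein, on a C57Bl/6 background, controls included. The 5 hTyr animals were infused with hTyr and the 6 EYFP animals with a yellow fluorescent protein. From each animal there was a library of ribosome-bound RNA pulled down by the tag (IP, labelled noradrenergic) and one of the starting RNA (input, labelled total hindbrain). Animals are named here by their IP library, as in IP_501. The 22 libraries therefore form the groups hTyr IP (n = 5), EYFP IP (n = 6), hTyr input (n = 5) and EYFP input (n = 6). The animals' age, the route and vector of the infusion and the cells that took it up are not given in the sources used here.

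Astrocytes are glial cells that surround synapses and blood vessels. They clear glutamate through the transporters encoded by Slc1a2 and Slc1a3, turn it into glutamine with the enzyme encoded by Glul, and exchange water and small molecules through the channels encoded by Aqp4 and Gja1. The cytoskeletal genes Gfap and Vim are widely used to follow the reaction of astrocytes to injury, and locus coeruleus neurons release noradrenaline onto astrocytes through much of the brain.

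Depth was 12654489 to 25100142 reads per library, and the members with the fewest and the most reads were Sox9, with as few as 280 in a library, and Glul, with up to 41869. As a check of the noradrenergic label of the IP libraries, 10 of 10 noradrenergic genes were higher in IP than in input in both treatments, with medians of 1.95 in EYFP and 2.64 in hTyr animals on the log2 scale. Their summed level was 610 to 2100 CPM (reads scaled to library size) in IP and 170 to 217 CPM in input. The 10 astrocyte markers were not near 0 in IP. Their summed level was 3097 to 4126 CPM in EYFP IP, 3159 to 4139 CPM in hTyr IP, 2824 to 3387 CPM in EYFP input and 2825 to 3586 CPM in hTyr input. The ranges of IP and input overlapped in both treatments. Mean sums were 3725 CPM in IP and 3125 in input for EYFP animals, and 3711 and 3098 for hTyr animals. Glul alone averaged 1907 and 1454 CPM in EYFP animals, and 1843 and 1412 in hTyr animals. The libraries labelled noradrenergic thus held astrocyte marker RNA, with a summed level on average no lower than that of the input. In bulk libraries of this kind, fewer astrocytes and less RNA per astrocyte cannot be told apart.

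Per kilobase of exon, Glul, S100b and Gfap were the members with the highest levels in every group. In EYFP input, Glul stood at 437 ± 46.0 CPM per kilobase (SD, n = 6). S100b followed at 271 ± 20.2 and Gfap at 131 ± 20.5 CPM per kilobase (SD, n = 6). These top 3 did not overlap each other or the rest in EYFP input. Slc1a2 was next at 24.1 ± 2.50 CPM per kilobase, above Aqp4 at 14.9 ± 3.07 (SD, n = 6), with no overlap between them. From Aqp4 down, neighbours overlapped: Gja1 at 11.4, Slc1a3 at 10.4, Vim at 7.79, Aldh1l1 at 7.78 and Sox9 at 7.32 CPM per kilobase. In EYFP IP the level of Glul was 574 ± 64.7 and that of S100b 207 ± 20.8 CPM per kilobase (SD, n = 6), and S100b and Gfap overlapped there. Sox9 was the lowest member in both IP groups, 5.40 ± 0.418 CPM per kilobase in EYFP IP (n = 6) and 5.75 ± 0.527 in hTyr IP (n = 5), and did not overlap its neighbour Vim. The order depends on the length used: with the longest transcript in place of all exons, Gja1 ranked 4th or 5th in each group, and Gfap (219 CPM per kilobase) passed S100b (205) in hTyr IP.

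**Figure D1:**
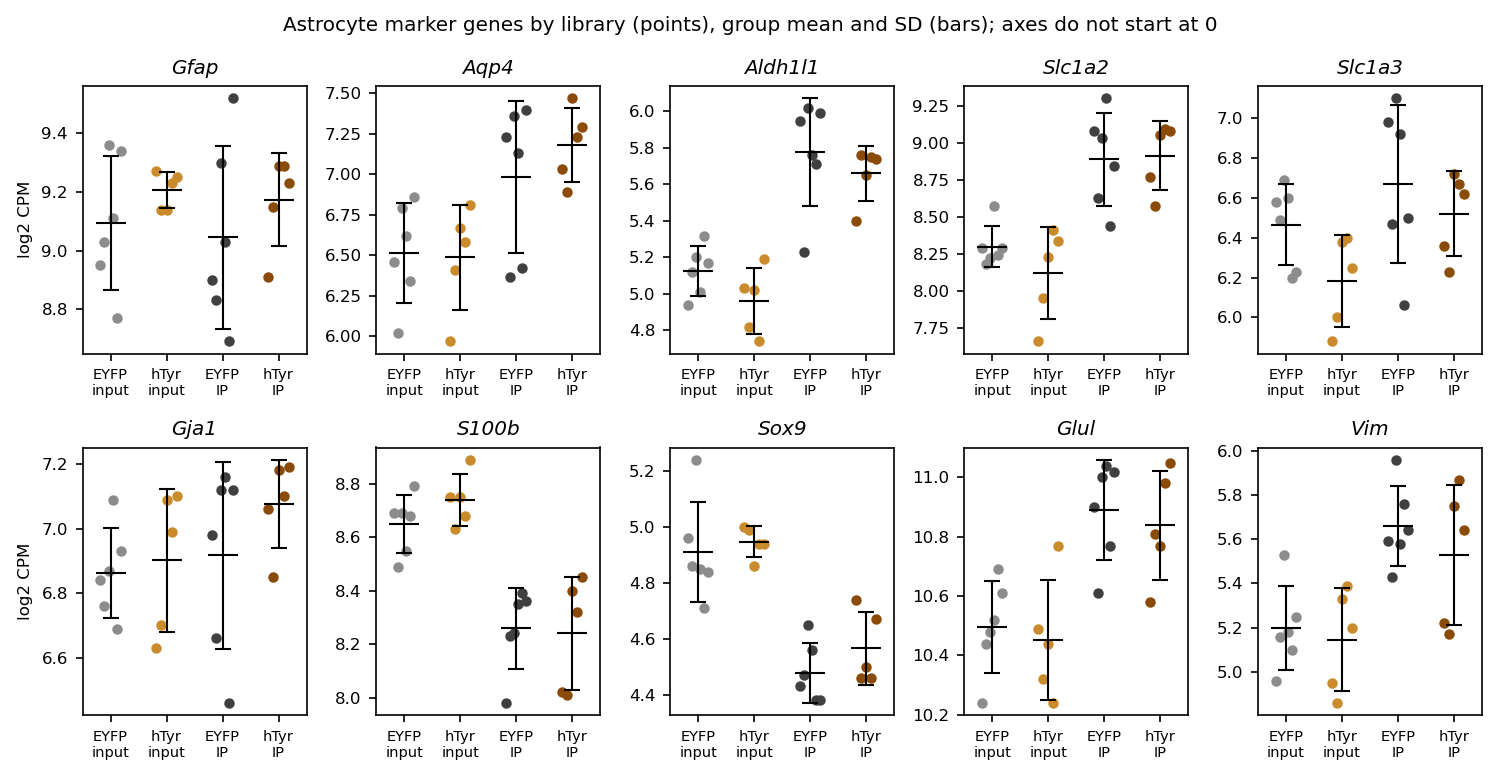
Level in log2 CPM (y axis, not from 0) of each member by group (x axis), with a point for each library and the group mean and SD as bars (n = 6 EYFP, n = 5 hTyr). S100b and Sox9 sit lower in IP than in input without overlap in both treatments, and in no panel do the hTyr and EYFP points of a fraction separate.

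The comparison of IP with input asks which astrocyte RNAs were enriched or depleted in the immunoprecipitate. Among EYFP animals 7 of 10 members passed the threshold (adjusted p under 0.05), against 56.5% of all genes. Of these, 5 were higher in IP (Aqp4, Aldh1l1, Slc1a2, Glul and Vim) and 2 lower (S100b and Sox9), against 28.5% of all genes higher and 28.1% lower. Among hTyr animals 8 of 10 passed, against 54.4% of all genes. There 6 were higher (Slc1a3 in addition) and the same 2 lower, against 27.4% higher and 27% lower. Groups did not overlap for 2 members in EYFP animals, where 30.1% of all genes did not overlap, and for 5 members in hTyr animals, where 37.5% did not. The median log2 change of the 10 members was 0.30 in EYFP and 0.36 in hTyr animals, beside -0.03 and -0.04 over all genes. Within animals, Aqp4, Aldh1l1, Slc1a2, Glul and Vim were higher in IP in 11 of 11, and S100b and Sox9 lower in 11 of 11. The share of all genes with the same direction in 11 of 11 animals was not counted.

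**Figure D2:**
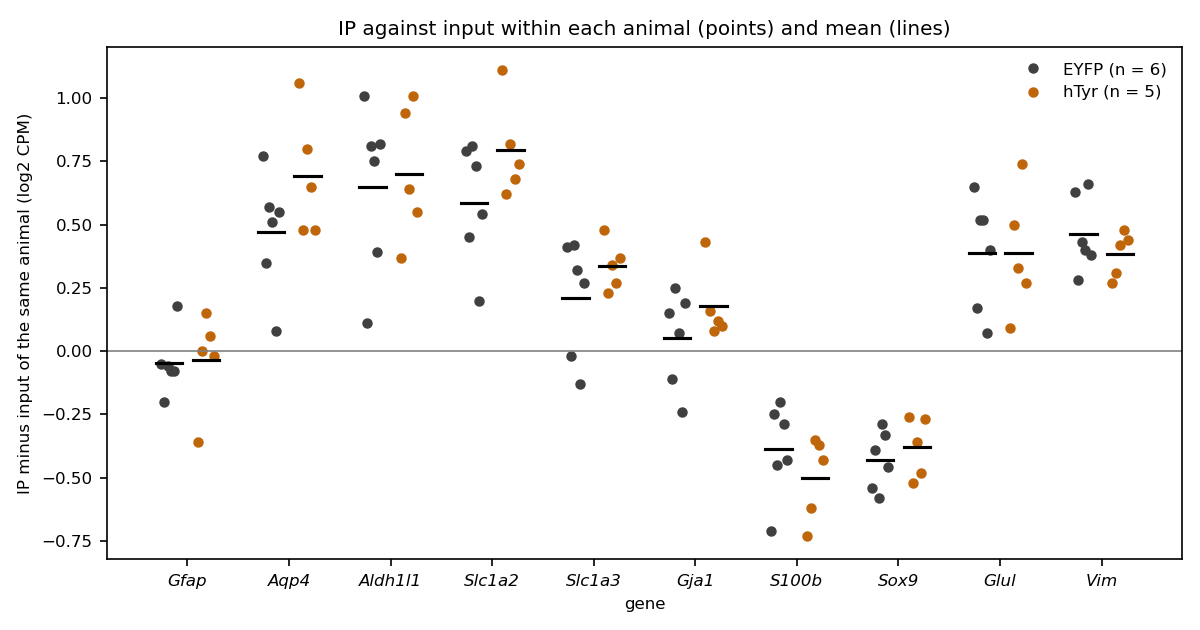
Difference between IP and input of the same animal in log2 CPM (y axis) for each member (x axis), with a point per animal (6 EYFP, 5 hTyr) and the mean as a line. Aldh1l1 and Slc1a2 have the highest means, S100b and Sox9 lie below 0 in 11 of 11 animals, and Gfap lies on both sides of 0.

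Slc1a2 encodes the main glutamate transporter of astrocytes. Its level in EYFP animals ran from 8.18 to 8.57 log2 CPM in input (median 8.26, n = 6) and from 8.44 to 9.30 in IP (median 8.93, n = 6). In hTyr animals IP_501, IP_502, IP_508, IP_509 and IP_510 it was 7.66, 7.95, 8.23, 8.41 and 8.34 log2 CPM in input, and 8.77, 8.57, 9.05, 9.09 and 9.08 in IP. Each hTyr IP library was above each hTyr input library, while in EYFP animals the IP library of animal IP_511 lay below the highest input library. The IP libraries were higher by 0.59 ± 0.12 (log2, SE; adjusted p = 0.000624, limma) in EYFP animals, a fold of 1.5. In hTyr animals the difference was 0.79 ± 0.14 (log2, SE; adjusted p = 0.000128, limma), a fold of 1.73. With each library's trend on longest-transcript length and GC content removed, an alternative chosen after seeing the data, the differences of this long gene were 0.30 and 0.40. Its longest transcript has 11595 bases and its exons 13133.

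Slc1a3, the other astrocyte glutamate transporter, showed a smaller difference. In EYFP animals it ran from 6.20 to 6.69 log2 CPM in input (median 6.53) and from 6.06 to 7.10 in IP (median 6.71). In hTyr animals, in the same order, it was 5.88, 6.00, 6.38, 6.40 and 6.25 log2 CPM in input, and 6.36, 6.23, 6.72, 6.67 and 6.62 in IP. The groups overlapped in both treatments, with IP higher in 4 of 6 EYFP and 5 of 5 hTyr animals. The difference was 0.21 ± 0.15 in EYFP animals (log2, SE; adjusted p = 0.243, limma) and passed there with the animal as a block (adjusted p = 0.02). In hTyr animals it was 0.34 ± 0.12 (adjusted p = 0.0237, limma), but 0.30 (adjusted p = 0.0504) without animal IP_501, 0.33 (adjusted p = 0.0632) without animal IP_510, and 0.15 (adjusted p = 0.247) with the length and GC trend removed. With the animal as a block alone, the hTyr difference had an adjusted p of 0.00123 (limma).

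Glul encodes glutamine synthetase, which turns glutamate into glutamine in astrocytes. Its level in EYFP animals ran from 10.24 to 10.69 log2 CPM in input (median 10.50) and from 10.61 to 11.04 in IP (median 10.95). Values in the hTyr animals were 10.49, 10.32, 10.44, 10.24 and 10.77 log2 CPM in input, and 10.58, 10.81, 10.77, 10.98 and 11.05 in IP. Groups overlapped in both treatments, yet each of the 11 animals had the higher value in IP. The difference was 0.39 ± 0.09 in EYFP animals (log2, SE; adjusted p = 0.00226, limma). It was 0.39 ± 0.11 in hTyr animals (adjusted p = 0.00868, limma), and 0.30 (adjusted p = 0.0606) without animal IP_509. With the animal as a block, the hTyr difference had an adjusted p of 0.00107 (limma).

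Aqp4 encodes the water channel of astrocyte end-feet, the processes that contact blood vessels. In EYFP animals it ran from 6.02 to 6.86 log2 CPM in input (median 6.54) and from 6.37 to 7.40 in IP (median 7.18). The hTyr animals had 5.97, 6.41, 6.67, 6.58 and 6.81 log2 CPM in input, and 7.03, 6.89, 7.47, 7.23 and 7.29 in IP. The hTyr groups did not overlap, whereas in EYFP animals libraries IP_505 and IP_511 lay within the range of input. The difference was 0.69 ± 0.14 in hTyr animals (log2, SE; adjusted p = 0.00048, limma) and 0.47 ± 0.19 in EYFP animals (adjusted p = 0.0396, limma). In this fit without the block, the EYFP difference missed the threshold without animal IP_504, IP_506, IP_507 or IP_512 (0.41 to 0.46, adjusted p = 0.12, 0.0769, 0.0893 and 0.0647 in that order). With all animals and the animal as a block, it passed (adjusted p = 2.98e-05, limma). With the length and GC trend removed, the difference was 0.16 in EYFP (adjusted p = 0.424) and 0.23 in hTyr animals (adjusted p = 0.0774), and both passed with the animal as a block as well.

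Gja1 encodes the main gap junction protein of astrocytes. In EYFP animals it ran from 6.69 to 7.09 log2 CPM in input (median 6.85) and from 6.46 to 7.16 in IP (median 7.05). Values in the hTyr animals were 6.63, 6.70, 7.09, 6.99 and 7.10 log2 CPM in input, and 7.06, 6.85, 7.18, 7.10 and 7.19 in IP. The groups overlapped, with IP above input in 9 of 11 animals. The difference did not pass: 0.05 in EYFP animals (95% interval -0.19 to 0.29) and 0.18 in hTyr animals (95% interval -0.04 to 0.40). The sign turned with the length and GC trend removed, to -0.19 in both treatments, which passed only with the animal as a block as well (adjusted p = 0.0101 and 0.0103, limma).

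Gfap, the intermediate filament gene most used as an astrocyte marker, was close in IP and input. In EYFP animals it ran from 8.77 to 9.36 log2 CPM in input (median 9.07) and from 8.69 to 9.52 in IP (median 8.96). The hTyr animals had 9.27, 9.14, 9.14, 9.23 and 9.25 log2 CPM in input, and 8.91, 9.15, 9.29, 9.29 and 9.23 in IP. The groups overlapped, and IP was higher in 4 of 11 animals. The difference was -0.05 in EYFP animals (95% interval -0.33 to 0.23) and -0.03 in hTyr animals (95% interval -0.22 to 0.15), and turned to 0.04 and 0.10 with the length and GC trend removed. 

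Vim encodes vimentin, a filament partner of Gfap in reactive and immature astrocytes that endothelial and other cells also make. In EYFP animals it ran from 4.96 to 5.53 log2 CPM in input (median 5.17) and from 5.43 to 5.96 in IP (median 5.61). Values in the hTyr animals were 4.95, 4.86, 5.33, 5.39 and 5.2 log2 CPM in input, and 5.22, 5.17, 5.75, 5.87 and 5.64 in IP. The groups overlapped, with IP higher in 11 of 11 animals. The difference was 0.46 ± 0.10 in EYFP animals (log2, SE; adjusted p = 0.000873, limma). It was 0.39 ± 0.14 in hTyr animals (adjusted p = 0.0296, limma), and missed the threshold without animal IP_508 (adjusted p = 0.0652), without animal IP_510 (adjusted p = 0.0812), under median centring (0.32, adjusted p = 0.0591) and with the length and GC trend removed (0.26, adjusted p = 0.112), though not with the animal as a block as well. The block alone gave an adjusted p of 0.000997 in hTyr animals (limma).

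Aldh1l1 encodes a folate enzyme found through most astrocytes of the brain. In EYFP animals it ran from 4.94 to 5.32 log2 CPM in input (median 5.15) and from 5.23 to 6.02 in IP (median 5.86). The hTyr animals had 5.03, 4.82, 5.02, 4.74 and 5.19 log2 CPM in input, and 5.40, 5.76, 5.65, 5.75 and 5.74 in IP. Of the EYFP IP libraries only that of animal IP_505 fell within the range of input, and the hTyr groups did not overlap. The difference was 0.65 ± 0.12 in EYFP animals (log2, SE; adjusted p = 0.000209, limma), a fold of 1.57. In hTyr animals it was 0.70 ± 0.10 (adjusted p = 3.18e-05, limma), a fold of 1.62. With the length and GC trend removed it was 0.78 and 0.87, so Aldh1l1 then had the highest difference of the 10 members in both treatments.

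S100b and Sox9 moved the other way. S100b encodes a calcium-binding protein that astrocytes secrete and some oligodendrocytes also make, and Sox9 a transcription factor of astrocyte identity. In EYFP animals S100b ran from 8.49 to 8.79 log2 CPM in input (median 8.68) and from 7.98 to 8.39 in IP (median 8.29). In hTyr animals S100b was 8.75, 8.63, 8.75, 8.68 and 8.89 log2 CPM in input, and 8.02, 8.01, 8.40, 8.32 and 8.45 in IP. Each IP library was below each input library of its treatment. The difference was -0.39 ± 0.08 in EYFP animals (log2, SE; adjusted p = 0.000534, limma), a fold of 0.765. In hTyr animals it was -0.50 ± 0.10 (adjusted p = 0.000393, limma), a fold of 0.707.

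Sox9 in EYFP animals ran from 4.71 to 5.24 log2 CPM in input (median 4.86) and from 4.38 to 4.65 in IP (median 4.45). In hTyr animals Sox9 was 5.0, 4.99, 4.86, 4.94 and 4.94 log2 CPM in input, and 4.74, 4.46, 4.50, 4.46 and 4.67 in IP. Here too the groups did not overlap in either treatment. The difference was -0.43 ± 0.09 in EYFP animals (log2, SE; adjusted p = 0.000635, limma) and -0.38 ± 0.09 in hTyr animals (adjusted p = 0.0025, limma). With the length and GC trend removed, S100b was at -0.43 and -0.54 and Sox9 at -0.42 and -0.39 in EYFP and hTyr animals.

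Other genes tied to astrocytes were read beside the members, in lists that partly share genes (Stat3, Hes5, Id3, Hepacam, Kcnj10, Gjb6, Mlc1 and Slc38a3 are each on more than 1). Gpr37l1 is on the list of other astrocyte genes and on that of Bergmann glia, counted below. Of 31 other astrocyte genes, 6 were higher and 10 lower in IP in EYFP animals (median -0.02), and 5 higher and 10 lower in hTyr animals (median -0.09). Acsbg1, a fatty acid activating enzyme, was higher by 0.73 in EYFP animals, and Pla2g7, a lipid hydrolase, by 0.69. Atp1b2, a sodium pump subunit of glia, differed by -0.87 and the adhesion gene Hepacam by -0.59. In hTyr animals Slc4a4, a bicarbonate transporter, was higher by 0.84 and Pla2g7 by 0.78, while Atp1b2 stood at -0.85 and the Notch target Hes5 at -0.72. These counts stand beside 28.5% higher and 28.1% lower over all genes in EYFP animals, and 27.4% and 27% in hTyr animals. With the length and GC trend removed the counts were 8 higher and 8 lower in EYFP and 9 and 8 in hTyr animals, and with the animal as a block 8 and 12 in each. The shares of all genes higher and lower under these alternatives are not given here.

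Of the glutamate and glutamine handling genes, 7 of 11 were higher and 0 lower in EYFP animals (median 0.38), and 8 of 11 higher and 0 lower in hTyr animals (median 0.50). Without the block, 28.5% of all genes were higher and 28.1% lower in EYFP animals, and 27.4% and 27% in hTyr animals. These shares also stand beside the transcription factor counts below. With the animal as a block the glutamate and glutamine counts were 8 higher and 1 lower, and 9 higher and 1 lower. These block counts have no share of all genes beside them, so they cannot be read as a stronger result. The highest was Slc17a6, a vesicular glutamate transporter of neurons, at 1.08 in EYFP and 1.33 in hTyr animals, so this list is not confined to astrocytes. Next were the mitochondrial enzymes Got2 at 0.66 in EYFP and Glud1 at 0.70 in hTyr animals. Among transcription factors of astrocytes and their precursors, 2 of 15 were higher and 9 lower in EYFP animals (median -0.37), and 3 higher and 11 lower in hTyr animals (median -0.49), which is the direction of Sox9. Tcf7l1 (-1.18 and -1.03 in EYFP and hTyr animals) and Nfix (-0.80 and -0.89) had the lowest values, and Nfib the highest (0.56 and 0.72), followed among those past the threshold by Stat3 at 0.18 in EYFP and Rorb at 0.38 in hTyr animals.

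Of 37 genes listed as reported in reactive astrocytes, 19 were in the deposited data. Of these 19, 7 were higher and 0 lower in IP in each treatment (medians 0.17 and 0.21). The counts of this paragraph without the block stand beside 28.5% of all genes higher and 28.1% lower in EYFP animals. In hTyr animals these shares were 27.4% and 27%. With the animal as a block, 8 reactive genes were higher, with 0 lower (EYFP) or 1 lower (hTyr). Counts in this paragraph with the block, or with the length and GC trend removed, have no such share beside them. Gbp2, an interferon-induced GTPase, was at 0.82 in EYFP and 1.23 in hTyr animals, and Cp, which encodes ceruloplasmin, at 0.80 and 1.07. End-foot and gap junction partners were split, with 3 of 12 higher and 3 lower in each treatment (medians -0.06 and -0.05), and 3 and 5 (EYFP) and 4 and 5 (hTyr) with the animal as a block. Tjp1, a tight junction scaffold also made by endothelial cells, was at 1.03 and 1.18 and Dmd, which encodes dystrophin, at 0.68 and 1.00, while Hepacam (-0.59 and -0.67) and the connexin gene Gjb2 (-0.50 and -0.66) were lower. Of the 6 noradrenaline receptor genes 0 were higher and 3 lower in each treatment (medians -0.16 and -0.25), with Adra2c at -0.43 and -0.48, Adrb1 at -0.40 in EYFP animals and Adra1b at -0.48 in hTyr animals. In each treatment 1 receptor gene was higher and 3 lower with the animal as a block, and 1 higher and 0 lower with the length and GC trend removed. Of 4 intermediate filament partners 2 were higher and 1 lower in each treatment (medians 0.06 and 0.11; 2 and 2 in EYFP animals with the animal as a block), Synm at 0.46 and 0.54, Lmna at 0.42 and 0.52, and the cross-linker gene Plec at -0.83 and -1.10.

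Markers of other cells were counted in the same way, beside 56.5% of all genes past the threshold in EYFP and 54.4% in hTyr animals. In EYFP animals 6 of 9 neuronal genes were higher and 1 lower, 3 of 11 oligodendrocyte genes higher and 5 lower, 1 of 5 oligodendrocyte precursor genes higher and 2 lower, and 1 of 12 microglial genes higher and 1 lower. In hTyr animals the counts were 7 higher and 1 lower, 4 and 5, 0 and 2, and 2 and 1 in the same order. Of 7 endothelial genes 1 was higher in EYFP and 2 in hTyr animals, and of 5 mural genes 2 and 3, with 0 lower. Of the 2 ependymal genes measured, 1 was lower in EYFP and 2 in hTyr animals, and of 2 Bergmann glia genes 1 was lower in each treatment. The Bergmann glia list holds Gpr37l1, which is also counted among the other astrocyte genes. With the animal as a block, the counts in EYFP animals were 5 and 5 for oligodendrocyte, 2 and 2 for precursor and 3 and 2 for microglial genes, and 2 endothelial genes were higher and 2 ependymal genes lower. The share of all genes past the threshold with the block is not given beside these. Apart from the noradrenergic list, none of these lists had every measured gene past the threshold and higher in IP. The part of these cells in the values of Vim, S100b and the other members was not tested.

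**Figure D3:**
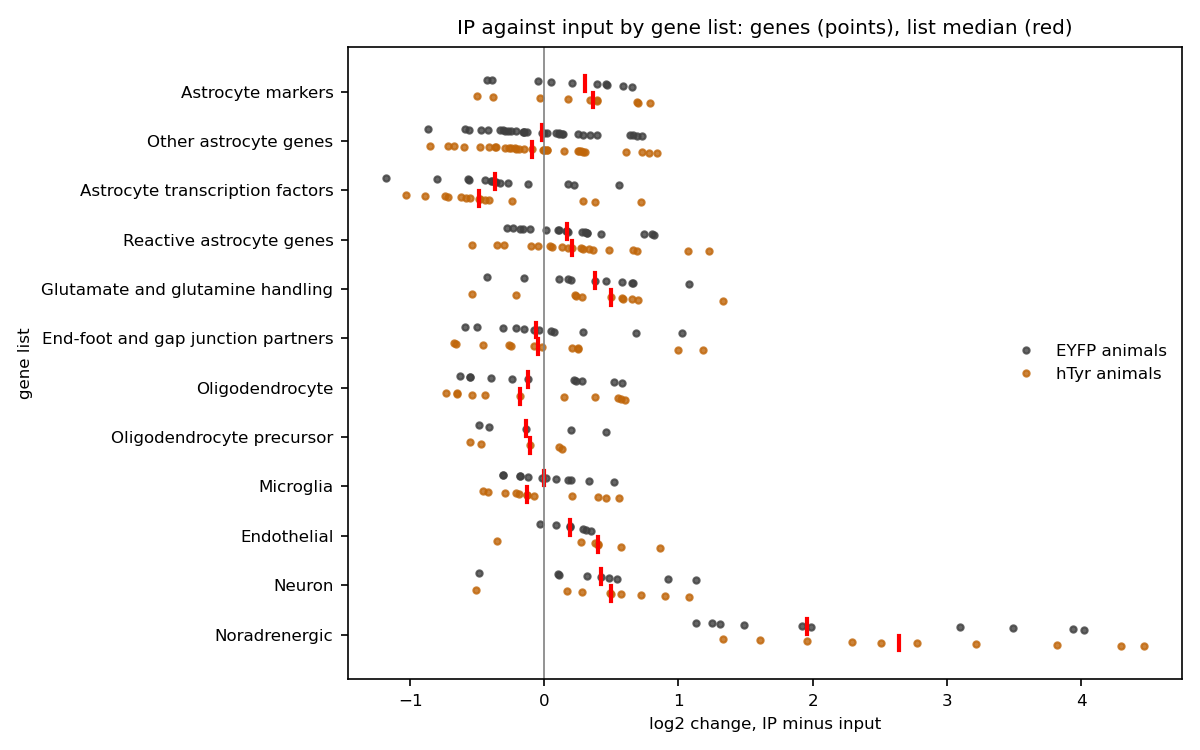
Difference between IP and input in log2 CPM (x axis) for each gene (points) of 12 lists (y axis) in EYFP and hTyr animals, with the list median in red. The 10 noradrenergic genes lie above 1, the astrocyte markers and the other astrocyte genes spread over both sides of 0, and 9 of 15 (EYFP) and 11 of 15 (hTyr) astrocyte transcription factors were lower.

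The comparison of hTyr with EYFP asks whether the tyrosinase changed the astrocyte markers, in the hindbrain input and in the IP. No member passed the threshold in either fraction. In input 0 of 10 members passed with limma, against 0.00794% of all genes, and 1 of 10 had an unadjusted p under 0.05, against 3.03% of all genes. In IP 0 of 10 passed with limma, against 0.0556% of all genes, and 0 of 10 had an unadjusted p under 0.05, against 6.19% of all genes. Voom in limma on the recovered reads also called 0 in both fractions. The hTyr and EYFP libraries overlapped for all 10 members in both fractions. The share of all genes with such overlap was not counted for these comparisons.

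Slc1a3 was the member with the lowest p in input: its 5 hTyr libraries lay between 5.88 and 6.40 log2 CPM and its 6 EYFP libraries between 6.20 and 6.69. The difference was -0.28 (log2; 95% interval -0.52 to -0.04; unadjusted p = 0.0238 and adjusted p = 0.99, limma), so it did not pass the correction over all genes. In IP Slc1a3 differed by -0.15 (95% interval -0.49 to 0.19). Gfap and Vim, whose rise is commonly used to mark reactive astrocytes, differed in input by 0.11 (95% interval -0.09 to 0.31) and -0.05 (95% interval -0.29 to 0.18). In IP Gfap differed by 0.13 (95% interval -0.15 to 0.41) and Vim by -0.13 (95% interval -0.40 to 0.15). Across the members, log2 differences ran from -0.28 to 0.11 in input (median -0.04; all genes -0.01) and from -0.15 to 0.19 in IP (median 0.00; all genes -0.01). The 95% intervals of the folds lay within 0.699 to 1.24 in input and 0.713 to 1.49 in IP.

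**Figure D4:**
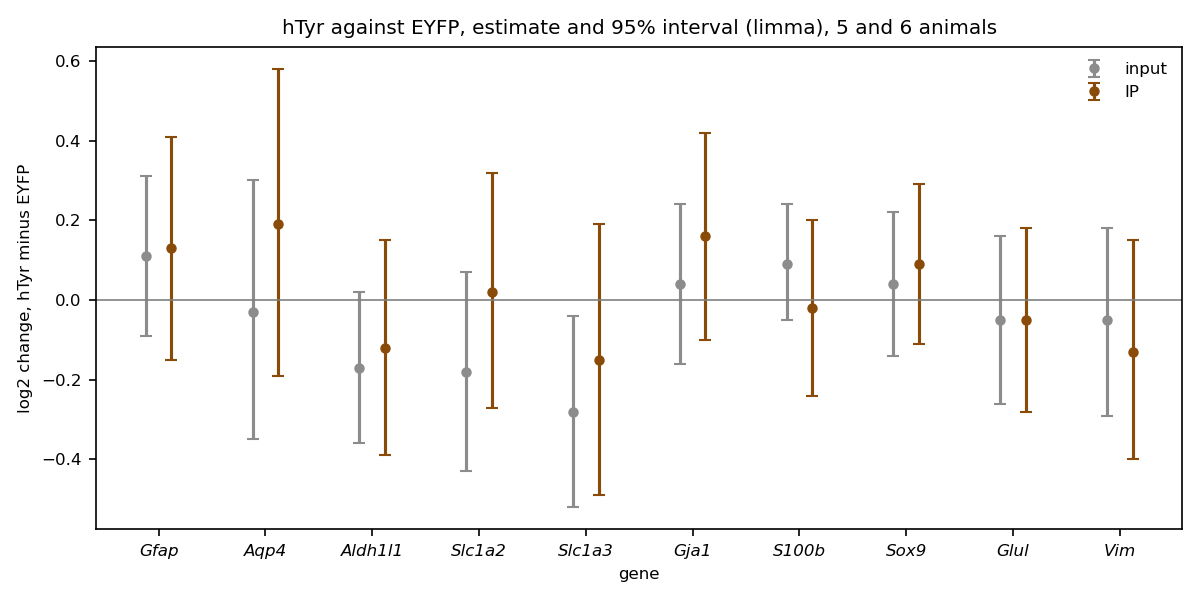
Difference between hTyr and EYFP animals in log2 CPM (y axis) for each member (x axis), as the limma estimate with its 95% interval, in input and in IP (5 hTyr and 6 EYFP animals). Apart from Slc1a3 in input (-0.52 to -0.04, adjusted p = 0.99), each interval includes 0.

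The test of whether the hTyr effect differed between IP and input gave 0 of 10 members past the threshold with limma (0 with voom), against 0.00794% of all genes, and 0 with an unadjusted p under 0.05, against 3.31% of all genes. The difference was 0.22 for Aqp4 (95% interval -0.31 to 0.76), the highest of the 10, and -0.11 for S100b (95% interval -0.37 to 0.14), the lowest. With the animal as a block these intervals were -0.03 to 0.47 for Aqp4 and -0.33 to 0.10 for S100b. That Slc1a3 passed in IP against input in hTyr animals alone is therefore no shown difference between the treatments: its own value here was 0.13 (95% interval -0.30 to 0.56). Of the 19 reactive astrocyte genes measured, 0 passed between hTyr and EYFP in input and 0 in IP (0 and 1 with an unadjusted p under 0.05, medians 0.00 and 0.03). The list named 37 genes, and those absent from the deposited data could not be tested. Of the 31 other astrocyte genes 0 passed in each fraction (0 and 0 with an unadjusted p under 0.05, medians 0.05 and 0.00), and of the 6 noradrenaline receptor genes also 0 in each. Of the 15 astrocyte transcription factors 0 passed, with 2 at an unadjusted p under 0.05 in input and 2 in IP (medians -0.07 and -0.11). Of the 12 end-foot and gap junction partners 0 passed, with 0 and 1 at an unadjusted p under 0.05. Over all genes these shares were 3.03% in input and 6.19% in IP.

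Within groups, the members varied together to unequal degrees. Over the 22 libraries, taken as deviations from the 4 group means, Pearson's r ran from -0.15 to 0.87 over the 45 pairs of members (median 0.37), 41 pairs were positive and 12 were over 0.5. These points share animals, since each animal gave 2 libraries, and r is given as a description. Slc1a2, Slc1a3, Gja1 and Aqp4, the transporters and channels of the cell membrane, varied together, with r of 0.65 to 0.87 over their 6 pairs (median 0.80). Glul and Aldh1l1, both soluble enzymes, had an r of 0.81 (0.79 in IP and 0.89 in input). Some other pairs differed between the fractions. Sox9 with Gfap had an r of -0.06 in IP and 0.62 in input, and Glul with Slc1a3 0.53 and -0.35. Sox9 had the lowest r with the mean of the other members (0.15), followed by S100b (0.32), the same genes that were lower in IP.

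**Figure D5:**
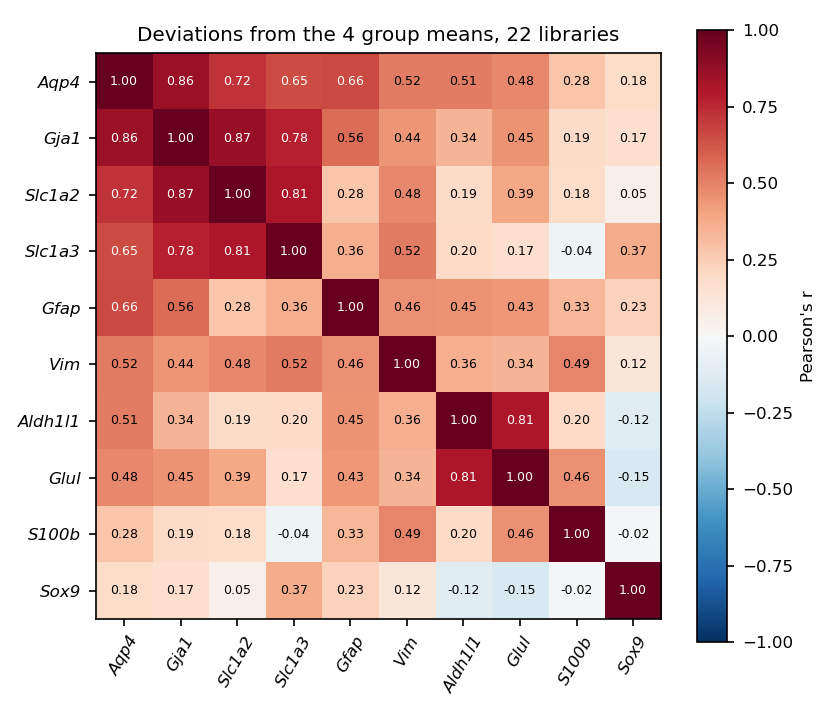
Pearson's r between members (both axes), from log2 CPM as deviations from the 4 group means over 22 libraries, with the colour and the printed value giving r. The block of Aqp4, Gja1, Slc1a2 and Slc1a3 holds values of 0.65 to 0.87, and the row of Sox9 holds the weakest relations with the rest.

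The shared variation followed the animal. The mean deviation of the members had the same sign in IP and input in 10 of 11 animals. It was -0.16 in IP and -0.15 in input for hTyr animal IP_501, and -0.18 and -0.13 for animal IP_502. EYFP animals IP_505 and IP_511 were the low ones of their group, at -0.26 and -0.25 in IP and -0.11 and -0.09 in input. Among EYFP animals IP_506 was highest, at 0.22 in IP and 0.14 in input. The deviations, taken from each group's own mean, ran from -0.26 to 0.22 in IP and from -0.15 to 0.16 in input.

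Other gene lists varied with the members to unequal degrees. The mean of the 31 other astrocyte genes had an r of 0.86 with the members' mean over the 22 libraries, the 12 microglial genes 0.83, the 11 oligodendrocyte genes 0.82 and the 19 reactive astrocyte genes 0.72. Lower values were found for the 2 Bergmann glia genes (0.53), the 5 oligodendrocyte precursor genes (0.37) and the 2 ependymal genes (-0.20). The noradrenergic genes had an r of -0.10 and the astrocyte transcription factors -0.39. The 5 genes most like the members' mean, of 12586, were Sparcl1 (0.92), a secreted glycoprotein gene that is on the list of other astrocyte genes, the lysosomal protease genes Ctsd (0.91) and Ctss (0.91), Tnfaip6 (0.91), which encodes a hyaluronan-binding protein, and the interferon-induced gene Ifit1 (0.90). Summed microglial levels ran from 232 to 439 CPM in EYFP IP and from 246 to 469 CPM in hTyr IP, and their part in the members' variation was not tested.

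The promoters of 3 of the 4 genes that varied most closely together are shown, so that genes that varied together can be compared at their starts. The sequences are from RefSeq (GRCm38.p6), 250 bases before to 50 after the start, written 5′ to 3′ on the gene's strand, and 8 of the 10 members had one. Capitals mark matches on either strand to TTGGC, the core letters of NFI factor sites, or to TTCNNNGAA, the letters of STAT factor sites. Slc1a2 (chromosome 2, exons spanning 102658659 to 102790784 on the plus strand) is shown at chr2:102706188-102706487, a start inside the annotated gene. Slc1a3 (chromosome 15, 8634124 to 8710764, minus strand) is shown at chr15:8710758-8711057, and Gja1 (chromosome 10, 56377330 to 56402513, plus strand) at chr10:56377050-56377349.
Slc1a2: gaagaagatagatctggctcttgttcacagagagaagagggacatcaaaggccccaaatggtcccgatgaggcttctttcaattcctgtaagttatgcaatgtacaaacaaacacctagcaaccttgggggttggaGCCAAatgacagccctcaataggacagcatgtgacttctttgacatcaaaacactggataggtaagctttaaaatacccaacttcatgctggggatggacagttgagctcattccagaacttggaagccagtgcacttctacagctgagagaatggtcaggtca
Slc1a3: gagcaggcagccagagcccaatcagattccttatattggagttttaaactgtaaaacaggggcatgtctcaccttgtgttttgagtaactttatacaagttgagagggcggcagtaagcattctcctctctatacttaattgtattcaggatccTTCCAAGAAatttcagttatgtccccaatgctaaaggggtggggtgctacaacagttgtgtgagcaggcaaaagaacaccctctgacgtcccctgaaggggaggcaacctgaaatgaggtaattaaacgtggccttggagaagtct
Gja1: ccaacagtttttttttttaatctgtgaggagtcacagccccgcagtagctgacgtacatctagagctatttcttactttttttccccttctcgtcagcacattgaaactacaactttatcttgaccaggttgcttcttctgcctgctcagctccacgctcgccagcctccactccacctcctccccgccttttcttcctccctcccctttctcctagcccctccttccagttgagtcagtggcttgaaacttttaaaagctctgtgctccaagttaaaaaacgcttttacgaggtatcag

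The 3 promoters held no match in common. Slc1a2 held 1 match to TTGGC and Slc1a3 held 1 to TTCNNNGAA, and Gja1 held neither. Among the 8 members with a promoter, TTGGC was found in 4 (Slc1a2, S100b, Glul and Vim), against 46.9% of all 32544 promoters in the table. TTCNNNGAA was found in 2 (Gfap and Slc1a3), against 8.3%, and the SOX letters ACAAAG in 0, against 18.7%. A match describes letters in this window and is not a shown binding site.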

How the data were processed

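RNA sequencing of 22 libraries from 11 animals was used. The authors deposited 1 table of log2 values for 12596 genes, filtered and normalized per its name; STAR, featureCounts and mm10 are named in the submitters' processing notes, without versions, and the annotation, strand setting, filter and normalization are not given in the sources used here. The deposited log2 values were tested and are log2 CPM: 100% of values came back as whole reads (tolerance 0.05), which gave 12654489 to 25100142 reads per library. Reads outside the table are unknown, reads carry no molecular identifiers, and reads from overlapping antisense genes cannot be told apart. Columns of no sample numbered 0.

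Log2 values of all genes were tested with limma (version 3.58.1, R 4.3.3), using eBayes with the prior variance following mean expression, with Benjamini-Hochberg adjustment and a threshold of 0.05. The groups were hTyr and EYFP, IP and input, with 5 comparisons: hTyr against EYFP in each fraction, IP against input in each treatment, and the interaction. Animals are separate replicates. IP and input share an animal number in the titles, and the 2 libraries of an animal deviated in common from their group means (r averaged 0.448, range 0.279 to 0.626, over 11 animals, against -0.0428 for different animals), so the numbers pair them. The fit without the replicate block is the main one. Its standard errors, intervals and adjusted p for IP against input and for the interaction therefore do not use the pairing. With the block, the standard error of Aqp4 for IP against input in EYFP animals was 0.07 in place of 0.19. Levels per kilobase used GENCODE M21 exons (GRCm38, the build named mm10). The length and GC check used the length and GC content of each gene's longest GENCODE M21 transcript. This annotation matched 12107 genes (96.1%) by symbol.

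The members and lists were chosen with earlier results of these data known. The naming rule takes all members, and of each other list the up to 2 highest and up to 2 lowest changes past the threshold; Stat3, Hes5 and the other genes shared by lists are named for that sharing. On simulated data with 200 of 12596 genes changed, 2-fold changes were called for 91% to 98% and 4-fold changes for 99% to 100% over the 5 comparisons. The members' folds lay within 0.707 to 1.73, and the share of calls at such smaller changes was not simulated. The simulated noise was separate for each library, without a part shared by the 2 libraries of an animal. Alternatives were no trend, quantile normalization, median centring, a pseudocount of 5 CPM, a filter keeping 75% of genes by mean, 1 spread over all libraries, voom, quality weights, the replicate block, leaving out each animal and, chosen after seeing the data, removal of each library's length and GC trend (loess, span 0.4), alone or with the block. Figures were drawn with Python 3.11.15 and matplotlib 3.10.9.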

Additional observations from a re-analysis of the deposited data

Results flagged for a closer look

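The level of Slc1a2 in the EYFP input library of animal IP_507 stood apart from the other 5 of its group: 8.57 log2 CPM (6226 reads), against 8.29 for the next library, a gap of 0.719 of the group's range. The IP library of the same animal was also the highest for Slc1a2 in its group, at 9.30 log2 CPM. Of the 40 groups of member values tested in this way 1 stood apart, where chance gives about 2.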

How the results depend on the processing

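Between hTyr and EYFP, the count of members past the threshold was 0 in input, in IP and for the difference between them under every alternative run and without each animal. For IP against input, leaving out each animal gave 6 to 7 members in EYFP and 6 to 8 in hTyr animals. The paired fit with the replicate block gave 8 members in EYFP animals, adding Slc1a3 (0.21), and 8 in hTyr animals, and changed no other member's call. How many of all genes passed with the block is not given here. Removing the length and GC trend gave 6 in EYFP and 5 in hTyr animals, since Aqp4, Slc1a3 and Vim missed the threshold in the latter. In hTyr animals 6450 of the 12107 genes with a length passed under that setting. With the replicate block as well, removal gave 8 and 8, with other members. Gja1 entered as lower in both treatments, and Slc1a3 passed in neither (0.15, adjusted p = 0.0551, limma, in hTyr animals).

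Signs turned for differences that had not passed the threshold. With the length and GC trend removed, Aqp4 in input (hTyr against EYFP) went to 0.06, Gfap in IP against input to 0.04 (EYFP) and 0.10 (hTyr), and Gja1 to -0.19 in both, and the values for Gfap and Gja1 were the same with the replicate block added. Quality weights turned Slc1a2 (hTyr against EYFP in IP) to -0.01, Gfap in IP against input to 0.06 (EYFP) and 0.00 (hTyr), and the Gfap interaction to -0.06. Median centring took the Gfap interaction to 0.00 and quantile normalization the Glul interaction to 0.00. Leaving out each animal, hTyr against EYFP in input ran from -0.13 to 0.10 for Aqp4, -0.01 to 0.10 for Gja1, 0.00 to 0.10 for Sox9, -0.13 to 0.01 for Glul and -0.11 to 0.02 for Vim. In IP it ran from -0.06 to 0.11 for Slc1a2, -0.08 to 0.04 for S100b and -0.11 to 0.01 for Glul. IP against input in hTyr animals ran from -0.08 to 0.05 for Gfap, and the interaction from -0.03 to 0.10 for Gfap, -0.06 to 0.14 for Aldh1l1 and -0.09 to 0.07 for Glul.

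In IP against input, Aqp4 in EYFP animals also missed the threshold without the trend (adjusted p = 0.0568), with quantile normalization (0.0537) and with median centring (0.0603). Vim in hTyr animals did so without the trend (0.0534) and with quantile normalization (0.0637), and Slc1a3 with median centring (0.0545) and 1 spread (0.0639). The cause was not tested.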
